A study of Mus musculus with 20 samples.

Results

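The genes of iron uptake, storage and export were taken as a list of 10 named genes, out of the 24421 gene symbols that each library lists. They are Tfrc and Slc11a2 for uptake, Fth1, Ftl1 and Ncoa4 for storage, Slc40a1 and Heph for export, Ireb2 and Aco1 for regulation, and Hmox1 for the release of iron from heme. All 10 were found by symbol, and all 10 passed the filter on low counts in every comparison. The list was set by gene name.

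The 20 libraries hold RNA of whole neocortex or whole hippocampus from 3-month-old mice, 5 per region of cTKO mice and 5 per region of their littermate controls. Both genotypes carry floxed alleles of APP, APLP1 and APLP2 on a C57BL/6 J and 129 hybrid background, although the labels call the controls wild type and the cTKO mice APP/APLP1/APLP2 -/-. Only cTKO mice also carry Camk2a-Cre, which is active in excitatory neurons of the forebrain after birth, so other cells of the tissue keep the genes. The paper states that both regions were collected from 5 cTKO mice and 5 controls, so the 20 libraries are not 20 separate animals. Libraries are named by genotype, region and their number in the labels, and nothing states that a number marks a mouse.

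Neurons and glia take up iron bound to transferrin through the transferrin receptor, move it out of endosomes, store the excess in ferritin cages and export it through ferroportin together with a ferroxidase. The amounts of several of these proteins are set after transcription: when iron is low, the iron regulatory proteins bind a hairpin, the iron-responsive element (IRE), and block translation of the ferritins and ferroportin while they stabilize the transcript of the receptor. The product of App has been proposed to take part in iron export by stabilizing ferroportin, and the ferritin-rich cells of the brain include oligodendrocytes and microglia.

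The hairpins of the members are shown because they mark which transcripts the regulators Ireb2 and Aco1 can act on. They were searched in the 5′ and 3′ UTRs of the GENCODE M21 annotation of GRCm38 (mm10) as 27 bases, in capitals the loop CAGTGN, whose final base was not G. Each hairpin had 5 paired bases on either side of the loop, an unpaired C below them and at least 3 of 5 further pairs. The 5′ UTRs of both ferritins and of ferroportin held 1 match each, at chr19:9982733-9982759 on the plus strand in Fth1, chr7:45459780-45459806 on the minus strand in Ftl1 and chr1:45925466-45925492 on the minus strand in Slc40a1.
Fth1: tcctgcttcaaCAGTGCttgaacggaa
Ftl1: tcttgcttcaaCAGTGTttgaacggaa
Slc40a1: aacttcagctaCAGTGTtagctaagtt
The 3′ UTR of Tfrc held 4 matches on the plus strand, at chr16:32631220-32631246, chr16:32631599-32631625, chr16:32631664-32631690 and chr16:32631711-32631737.
Tfrc 1: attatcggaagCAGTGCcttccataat
Tfrc 2: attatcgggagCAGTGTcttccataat
Tfrc 3: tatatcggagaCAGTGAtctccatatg
Tfrc 4: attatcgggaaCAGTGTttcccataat
Such a match was present in the 5′ UTR of 8 of 21181 genes (0.0378%) and in the 3′ UTR of 26 of 21166 genes (0.123%). The UTRs of Slc11a2, Ncoa4, Heph, Ireb2, Aco1 and Hmox1 held no match to these letters.

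Total counts ranged from 12169474 to 24842764 in the neocortex and from 19552353 to 25331954 in the hippocampus. Levels are given as counts per 1000000 (CPM) on a scale shared by the 20 libraries, on which 3 counts equal 0.118 to 0.247 CPM, and the members had between 57 and 88237 counts in a library. The labels of genotype were borne out by App, Aplp1 and Aplp2, which were lower in all cTKO libraries than in any control, with log2 fold changes of -2.10, -1.92 and -1.60 in the neocortex and -1.78, -1.93 and -1.25 in the hippocampus. The labels of tissue were borne out by Tbr1, at 187 to 282 CPM in the neocortex and 40.5 to 76.8 CPM in the hippocampus, and by Prox1, at 9.25 to 16.1 and 62.9 to 113 CPM. A pair of libraries stood apart: cTKO neocortex 5 had the embryonic transcript H19 at 317 CPM and cTKO hippocampus 4 had it at 195 CPM, whereas no other library exceeded 2.15 CPM. Results that change without them are given both ways.

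No member passed the test for a difference between cTKO mice and controls in either region. Tfrc, the transferrin receptor, was at 1.19-fold of the control level in the neocortex and Hmox1, the heme oxygenase, at 1.35-fold in the hippocampus, and neither passed the test. By region, in contrast, Fth1 was 1.72-fold higher in the hippocampus than in the neocortex of controls and 1.78-fold higher in cTKO mice. Ftl1, Ncoa4 and Heph were higher there in both genotypes as well, whereas Aco1 was at nearly the same level in all 4 groups.

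**Figure D1:**
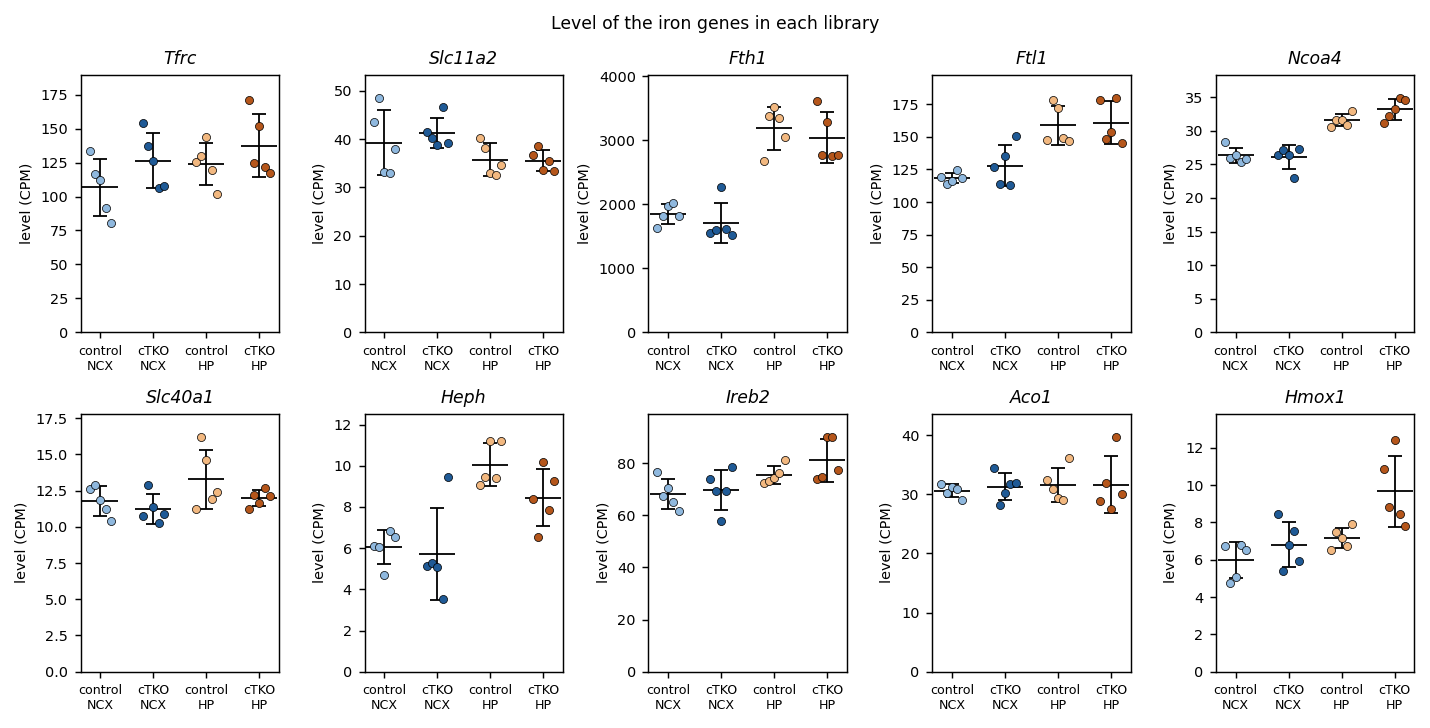
Level of each gene in CPM (y axis, from 0) in the 5 libraries of each group (points; black bar, mean; whiskers, SD), with NCX for neocortex and HP for hippocampus. Neocortical libraries held Fth1 at 1524 to 2263 CPM and hippocampal libraries at 2671 to 3618 CPM, while control and cTKO libraries overlapped for every gene in both regions.

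The genotypes were compared in each region by the quasi-likelihood test of edgeR, and its p values were adjusted over all genes tested there by Benjamini and Hochberg's method (FDR, threshold 0.05). In the neocortex, 0 of the 10 members passed, where 0.188% of all genes did (26 of 13843). None had an unadjusted p under 0.05, which 10.4% of all genes had, but without cTKO neocortex 5 edgeR's unadjusted p was 0.0487 for Tfrc and 0.0425 for Heph. With the libraries blocked by their number, edgeR's unadjusted p of Tfrc was 0.0017 (FDR = 0.153). The log2 fold changes of the members ran from -0.11 for Fth1 to 0.25 for Tfrc, with a median of 0.04 against 0.01 over all genes, and their FDR from 0.542 to 0.983. In the hippocampus, 0 of the 10 members passed, where 0.489% of all genes did (67 of 13702). With a library left out, these shares of all genes ran from 0.0507% to 0.966% in the neocortex (highest without cTKO neocortex 5) and from 0.110% to 1.09% in the hippocampus (highest without cTKO hippocampus 5), and members called stayed at 0. In the hippocampus only Hmox1 had an unadjusted p under 0.05, which 12% of all genes had. With the libraries blocked by their number, Heph had one as well (0.0404 in edgeR's test). Here the log2 fold changes ran from -0.25 for Heph to 0.43 for Hmox1, with a median of 0.01 against 0.00 over all genes. For no member were the 5 cTKO libraries all above or all below the 5 controls, a separation that 2.36% of genes showed in the neocortex and 3.13% in the hippocampus. DESeq2 and edgeR's 2 other tests (exact and likelihood ratio) also called 0 of the 10 members in both regions. The p values measure the spread between these libraries. In whole tissue, fewer cells of a type and less RNA per cell cannot be told apart, and a change in excitatory neurons alone is averaged with the RNA of all other cells.

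**Figure D2:**
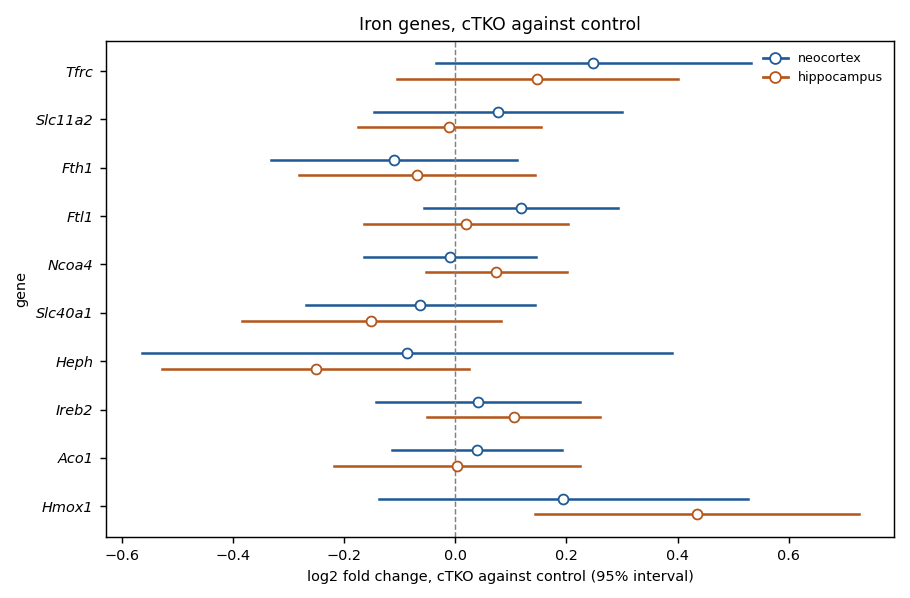
Log2 fold change of each gene in cTKO mice against controls (x axis) with its 95% interval (line), in the neocortex (blue) and the hippocampus (orange); open points did not pass an FDR of 0.05. All points are open, and the interval of Hmox1 in the hippocampus, 0.14 to 0.73, is the only one that leaves out 0.

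Hippocampus and neocortex were compared in a single fit of all 20 libraries. This fit treats the libraries of both regions as independent, although the regions come from the same mice. In controls, 4 of the 10 members passed, all of them higher in the hippocampus: Fth1, Ftl1, Ncoa4 and Heph. Regions differed widely in general, with 51.1% of all 14192 genes called and 26.3% called higher in the hippocampus, so that members were called no more often than genes at large, while the called members all lay on the hippocampal side. In cTKO mice, 6 members passed, the same 4 with Ireb2 and Hmox1, all higher in the hippocampus, where 49.6% of all genes were called and 25.8% were called higher in the hippocampus. The median log2 fold change of the members was 0.24 in controls and 0.27 in cTKO mice, against 0.02 and 0.01 over all genes. The log2 fold change lay above 0 for 9 of the 10 members in both genotypes, as it did for 51.6% and 51.1% of all genes. In controls, the 4 called members were also those whose 10 libraries did not overlap between regions, as 43.7% of all genes did not. In cTKO mice this held for Fth1 and Ncoa4, which were higher, and for Slc11a2, which was lower with an FDR of 0.0614, where 28.7% of all genes did not overlap. RNA of the neocortex was extracted with the RNeasy Plus Universal Kit and that of the hippocampus with the RNeasy Plus Mini kit, and region and kit cannot be told apart.

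The controls with the same number in both regions deviated together, and a fit of region that takes the number as a mouse was therefore set beside the unpaired fit. It called 5 members in controls, adding Tfrc with a log2 fold change of 0.23 and an FDR of 0.0227.

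**Figure D3:**
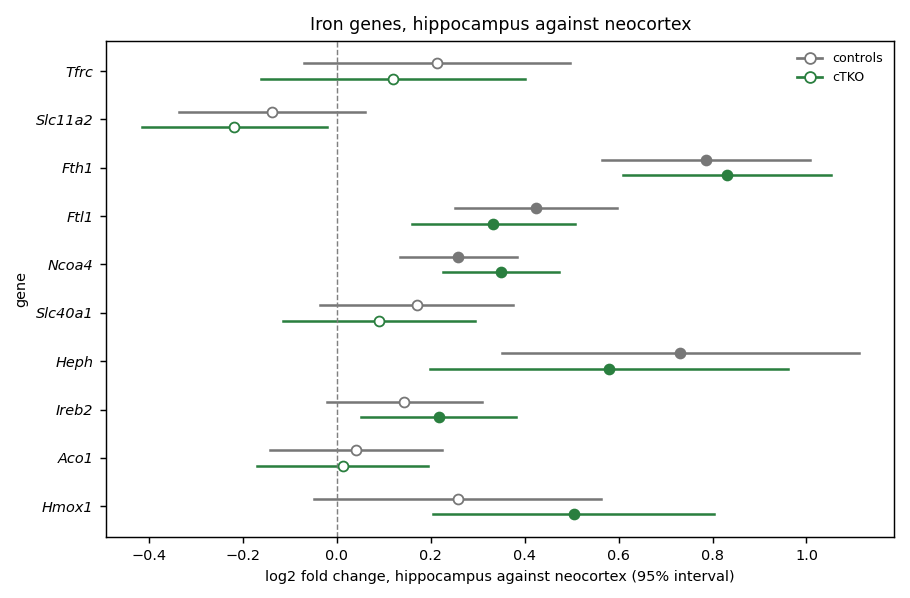
Log2 fold change of each gene in the hippocampus against the neocortex (x axis) with its 95% interval (line), in controls (grey) and cTKO mice (green); filled points passed an FDR of 0.05. Fth1 and Heph lie farthest to the right in both genotypes, and Slc11a2 alone lies below 0.

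The regional differences of the genotypes were compared by the interaction in the same fit. It called 0 of the 10 members, where 0.0564% of all genes were called (8 of 14192). None of the members had an unadjusted p under 0.05, which 3.75% of all genes had, and neither the likelihood ratio test nor DESeq2 called a member. The interaction was largest for Hmox1, with a log2 difference of 0.25 ± 0.21 (SE) and a 95% interval from -0.18 to 0.67. For Fth1 it was 0.05, with an interval from -0.26 to 0.36. Although Ireb2 and Hmox1 passed in cTKO mice alone, their regional difference was therefore not shown to depend on genotype.

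Among the genes of uptake, Tfrc encodes the transferrin receptor (chromosome 16, 32608920 to 32632794). In the neocortex it was at 134, 117, 112, 91.2 and 80.5 CPM in controls 1 to 5 and at 154, 137, 126, 106 and 108 CPM in cTKO libraries 1 to 5. In the hippocampus it was at 125, 129.5, 144, 119.7 and 102 CPM in controls and at 171, 125, 152, 122 and 117 CPM in cTKO mice. The means were higher in cTKO mice in both regions, but the groups overlapped: the log2 fold change was 0.25 ± 0.13 (SE, n = 5 and 5; edgeR's FDR = 0.542) in the neocortex and 0.15 ± 0.12 (SE; FDR = 0.688) in the hippocampus. Without cTKO neocortex 5, the neocortical difference was 0.29 with an FDR of 0.415. Tfrc did not pass between regions in the unpaired fit, with 0.21 in controls (FDR = 0.199) and 0.12 in cTKO mice (FDR = 0.488).

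Slc11a2 encodes the divalent metal transporter that carries ferrous iron out of the endosome (chromosome 15, 100387898 to 100425072, where it overlaps Gm5475 on the opposite strand). Its neocortical level was 43.5, 48.6, 33.2, 33.0 and 38.0 CPM in controls and 41.5, 40.3, 38.7, 46.6 and 39.2 CPM in cTKO mice. Its hippocampal level was 40.3, 38.2, 33.1, 32.7 and 34.6 CPM in controls and 36.7, 38.5, 33.6, 35.4 and 33.4 CPM in cTKO mice. The cTKO libraries lay within the range of the controls in both regions, and the log2 fold changes were 0.08 ± 0.10 (SE; edgeR's FDR = 0.855) and -0.01 ± 0.08 (SE; FDR = 0.981). In cTKO mice every hippocampal library was below every neocortical library, at 0.86-fold (log2 fold change -0.22, FDR = 0.0614). The call depended on the fit: with DESeq2, with DESeq2 size factors, with the replicate block and with the 10 cTKO libraries alone it passed, as it did when control neocortex 2 or 4, cTKO neocortex 5 or cTKO hippocampus 2 was left out, with an FDR from 0.0155 to 0.0494 over these 8 fits.

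Among the genes of storage, Fth1 encodes the ferritin heavy chain, which oxidizes iron as it enters the cage (chromosome 19, 9980598 to 9985098). It made up 76.2% to 87.8% of all counts of the 10 genes in a library, a share not scaled by transcript length. The counts of Ftl1 within this share are uncertain, since 78.6% of the windows of 100 bases of its transcript are shared with other loci. Fth1 was at 1629, 1814, 1977, 2018 and 1819 CPM in the neocortex of controls and at 1545, 1596, 2263, 1616 and 1524 CPM in that of cTKO mice. Of the cTKO libraries 4 lay below every control and the third above every control. The log2 fold change was -0.11 ± 0.10 (SE, edgeR's FDR = 0.768), with a 95% interval from -0.33 to 0.11. Without the third cTKO library it was -0.23 (FDR = 0.1315). In the hippocampus Fth1 was at 2671, 3377, 3513, 3341 and 3051 CPM in controls and at 3618, 2777, 3288, 2760 and 2764 CPM in cTKO mice. These groups overlapped over most of their range, with a log2 fold change of -0.07 ± 0.10 (SE; FDR = 0.849). Every hippocampal library was above every neocortical library, and the log2 fold change between regions was 0.79 ± 0.11 (SE; FDR = 2.87e-06) in controls and 0.83 ± 0.11 (SE; FDR = 1.48e-06) in cTKO mice. Both calls were made in all 28 alternative fits, with log2 fold changes from 0.74 to 0.84 and from 0.75 to 0.95.

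Markers of cell types were also compared between regions, where 51.1% of all genes were called in controls and 26.3% were called higher in the hippocampus. Of the marker genes tested, 6 of 8 astrocyte, 4 of 8 microglial, 2 of 8 oligodendrocyte, 7 of 7 choroid plexus and 3 of 3 ependymal genes were called higher in the hippocampus of controls, and none of these lists had a gene called lower. Of the other lists, 4 excitatory neuron genes were higher and 3 lower of 8, 3 interneuron genes were lower of 6, 3 endothelial genes were lower of 7, 1 gene of oligodendrocyte precursors was lower of 4, and 2 genes of pericytes and vascular smooth muscle were higher and 1 lower of 5. None of 4 macrophage genes or 2 embryonic genes tested was called, and no adult blood gene passed the filter. In all, 39 of 70 marker genes were called by region in controls and 38 of 70 in cTKO mice, beside 51.1% and 49.6% of all genes. The summed level of the 8 oligodendrocyte genes was 3874 to 5137 CPM in the neocortex and 4481 to 6559 CPM in the hippocampus of controls, and 3067 to 6062 and 4180 to 7113 CPM in cTKO mice. That of the 8 microglial genes was 330 to 369.8 and 388 to 453 CPM in controls and 279 to 362 and 352 to 489 CPM in cTKO mice. The cTKO neocortex 3 library had the highest oligodendrocyte sum of the neocortex, 6062 CPM, as well as the highest neocortical Fth1, 2263 CPM. Its sums of excitatory neuron genes, 10827 CPM, and oligodendrocyte precursor genes, 273 CPM, were also the highest of the neocortex. As a description over the 20 libraries, which share their depth, deviations from the group means were compared. For Fth1 and the oligodendrocyte sum, Pearson's r was 0.82 and Spearman's rho 0.76, with r 0.73 without the 2 libraries farthest from the median sum. Fth1 also had r 0.82 with the sum of oligodendrocyte precursors, 0.71 with that of excitatory neurons, and -0.25 to 0.46 with the other lists. The oligodendrocyte value was singled out after 130 such values had been seen. The summed level of the 7 choroid plexus genes was 10.3 to 16.5 CPM in the neocortex and 77.1 to 2724 CPM in the hippocampus of controls, and 9.54 to 19.1 and 113 to 601 CPM in cTKO mice. The part of these cell types in the regional difference was not tested. Between genotypes, 0 of the 67 marker genes tested in the neocortex and 0 of the 70 tested in the hippocampus passed edgeR's quasi-likelihood test. Of these, 7 and 17 had an unadjusted p under 0.05, while DESeq2 called 2 and 1, and edgeR's exact and likelihood ratio tests both called 3 and 3.

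**Figure D4:**
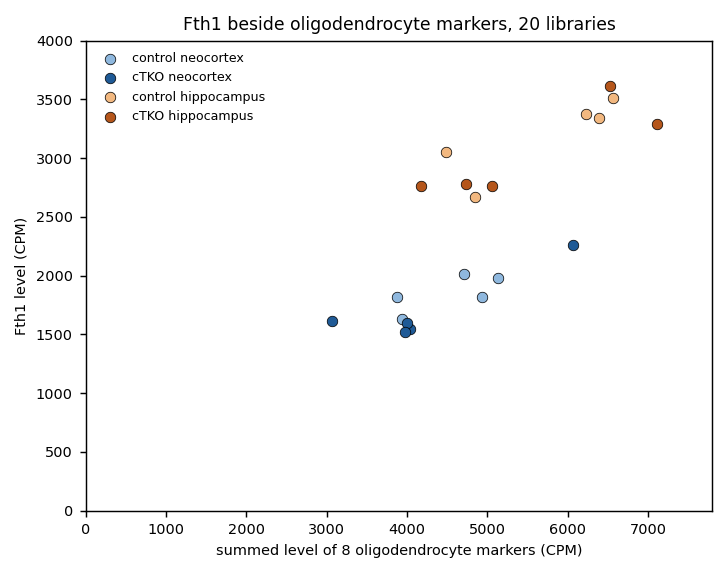
Fth1 level in CPM (y axis) against the summed level of 8 oligodendrocyte marker genes in CPM (x axis), both from 0, in the 20 libraries coloured by group. In the neocortex the library with the highest marker sum, cTKO neocortex 3 at 6062 CPM, also has the highest Fth1, at 2263 CPM.

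Ftl1 encodes the ferritin light chain, which favours the formation of the iron core (chromosome 7, 45457944 to 45459884, where it overlaps Gm22133 and Gm10252). It was at 119.5, 114, 116, 124 and 119 CPM in the neocortex of controls and at 127, 114, 135, 113 and 151 CPM in that of cTKO mice. In the hippocampus it was at 148, 178, 172, 149.5 and 147 CPM in controls and at 178, 148, 154, 179.8 and 146 CPM in cTKO mice. The cTKO neocortical libraries were spread more widely, with SD of 15.9 against 3.99 CPM, on both sides of the controls, and the genotypes did not differ beyond the spread (log2 fold change 0.12 ± 0.08, SE, edgeR's FDR = 0.659; in the hippocampus 0.02 ± 0.08, FDR = 0.966). The highest of them was cTKO neocortex 5, without which the neocortical value was 0.04. Ftl1 was 1.34-fold higher in the hippocampus of controls, where the regions did not overlap (FDR = 0.000223), and 1.26-fold higher in that of cTKO mice (FDR = 0.00215), both in all 28 alternative fits. Of the windows of 100 bases of its transcript, 78.6% are shared with other annotated loci, among them Ftl1-ps1 and Ftl2-ps, so that reads of these copies cannot be told from those of Ftl1. Of the windows of Fth1, 0.964% are shared in this way.

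Ncoa4 encodes the receptor that carries ferritin to the lysosome to release its iron (chromosome 14, 32159865 to 32179855). It was at 28.3, 25.9, 26.3, 25.4 and 25.8 CPM in the neocortex of controls and at 26.4, 27.1, 26.4, 23.0 and 27.3 CPM in that of cTKO mice. In the hippocampus it was at 30.6, 31.6, 31.6, 30.9 and 32.9 CPM in controls and at 31.1, 32.2, 33.2, 34.9 and 34.5 CPM in cTKO mice. The genotype differences were -0.01 ± 0.07 (SE, log2; edgeR's FDR = 0.983) and 0.07 ± 0.06 (SE; FDR = 0.690), with 95% intervals from -0.16 to 0.15 and from -0.05 to 0.20. Every hippocampal library was above every neocortical library, by 1.20-fold in controls (FDR = 0.00108) and 1.27-fold in cTKO mice (FDR = 5.12e-05). The counts of Ncoa4 are uncertain as well, since 48.7% of its windows of 100 bases are shared with Gm6768.

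Among the genes of export, Slc40a1 encodes ferroportin, the iron exporter of the cell membrane (chromosome 1, 45908068 to 45926523). It was at 12.6, 12.9, 11.9, 11.2 and 10.4 CPM in the neocortex of controls and at 10.7, 12.9, 11.4, 10.3 and 10.9 CPM in that of cTKO mice. In the hippocampus it was at 11.3, 16.2, 14.6, 11.9 and 12.4 CPM in controls and at 11.2, 12.2, 11.6, 12.7 and 12.2 CPM in cTKO mice. The groups overlapped throughout. The log2 fold change between genotypes was -0.06 ± 0.10 (SE; edgeR's FDR = 0.876) in the neocortex and -0.15 ± 0.11 (SE; FDR = 0.649) in the hippocampus, with 95% intervals from -0.27 to 0.14 and from -0.38 to 0.08. Between regions it was 0.17 in controls (FDR = 0.159) and 0.09 in cTKO mice (FDR = 0.479), and it passed in none of the 28 alternative fits of either genotype.

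Heph encodes hephaestin, a ferroxidase that works with ferroportin (chromosome X, 96455359 to 96574485, where it overlaps Hsf3 and the pseudogenes Rpl17-ps8 and Gm14935). In the neocortex it was at 6.11, 6.03, 4.69, 6.84 and 6.53 CPM in controls and at 5.15, 5.29, 5.10, 3.55 and 9.48 CPM in cTKO mice. The value of 9.48 CPM belongs to cTKO neocortex 5, a library that stands apart. The log2 fold change between genotypes was -0.09 ± 0.22 (SE; edgeR's FDR = 0.930) with this library and -0.34 ± 0.15 (SE; unadjusted p = 0.0425 in edgeR's test, FDR = 0.394) without it. In the hippocampus Heph was at 9.04, 9.45, 11.2, 9.41 and 11.2 CPM in controls and at 8.41, 6.52, 10.2, 7.84 and 9.28 CPM in cTKO mice. Here 3 cTKO libraries lay below every control, and the log2 fold change was -0.25 ± 0.13 (SE; FDR = 0.464), with a 95% interval from -0.53 to 0.02. Heph was 1.66-fold higher in the hippocampus of controls (log2 fold change 0.73, FDR = 0.00207), without overlap, and 1.49-fold higher in that of cTKO mice (0.58, FDR = 0.0119), where the cTKO neocortex 5 library lay among the hippocampal values. Without both libraries that stand apart, the cTKO value was 0.83. With the 10 cTKO libraries fitted alone, the call was lost (FDR = 0.0713).

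Of the regulators, Ireb2 encodes iron regulatory protein IRP2, which is degraded when iron is plentiful (chromosome 9, 54863789 to 54912530). It was at 76.6, 67.4, 70.7, 65.0 and 61.6 CPM in the neocortex of controls and at 73.9, 69.4, 57.9, 69.3 and 78.6 CPM in that of cTKO mice. In the hippocampus it was at 72.3, 73.3, 74.4, 76.4 and 81.2 CPM in controls and at 73.9, 74.6, 90.1, 89.99 and 77.3 CPM in cTKO mice. A pair of cTKO hippocampal libraries, the third and the fourth, lay above all others, and the genotypes differed by 0.04 ± 0.09 (SE, log2; edgeR's FDR = 0.917) and 0.10 ± 0.07 (SE; FDR = 0.628). The regional difference in cTKO mice, 1.16-fold (log2 fold change 0.22, FDR = 0.0274), was lost without cTKO neocortex 3 (0.16, FDR = 0.0856), without cTKO hippocampus 3 (0.18, FDR = 0.080), without cTKO hippocampus 4 (0.16, FDR = 0.103), with the replicate block (0.22, FDR = 0.0626) and with the 10 cTKO libraries alone (0.20, FDR = 0.114). In controls it was 0.14 (FDR = 0.138).

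Aco1 encodes IRP1, which is an aconitase while it holds an iron-sulfur cluster and binds IREs without it (chromosome 4, 40143081 to 40198338). Its mean was 30.6 ± 1.03 CPM in the neocortex of controls, 31.3 ± 2.33 in that of cTKO mice, 31.5 ± 2.88 in the hippocampus of controls and 31.6 ± 4.82 in that of cTKO mice (SD, n = 5 each). The lowest of the 20 libraries was at 27.6 CPM and the highest, cTKO hippocampus 4, at 39.7 CPM. No comparison passed: the log2 fold change was 0.04 and 0.00 between genotypes (edgeR's FDR = 0.901 and 0.996) and 0.04 and 0.01 between regions (FDR = 0.725 and 0.921). The 95% intervals kept the genotype difference within -0.11 to 0.19 in the neocortex and -0.22 to 0.22 in the hippocampus.

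Hmox1 encodes heme oxygenase 1, the inducible enzyme that frees iron from heme (chromosome 8, 75093621 to 75100589). It was at 6.73, 4.78, 5.10, 6.78 and 6.53 CPM in the neocortex of controls and at 8.44, 5.38, 6.80, 7.53 and 5.92 CPM in that of cTKO mice. In the hippocampus it was at 6.53, 7.51, 7.17, 6.75 and 7.90 CPM in controls and at 10.9, 8.85, 12.4, 8.46 and 7.84 CPM in cTKO mice. In the hippocampus 4 of the 5 cTKO libraries lay above every control, and the fifth just below the highest control. The log2 fold change was 0.43 ± 0.13 (SE) with a 95% interval from 0.14 to 0.73. The unadjusted p of edgeR's test was 0.00682, and with an FDR of 0.217 over 13702 genes it did not pass. Over 19 alternative fits the FDR ran from 0.0976 to 0.415. In the neocortex the log2 fold change was 0.19 ± 0.15 (SE; FDR = 0.712). Between regions Hmox1 was 1.42-fold higher in the hippocampus of cTKO mice (FDR = 0.00594), in all 28 alternative fits, and 1.20-fold in controls, where it did not pass (FDR = 0.153).

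Levels of different genes were compared only per kilobase of transcript. In the neocortex of controls they ran from 1993 ± 166 CPM per kilobase for Fth1 and 122 ± 4.12 for Ftl1 to 3.50 ± 0.300 for Slc40a1 and 1.27 ± 0.174 for Heph (SD, n = 5). Tfrc came next after the ferritins, at 21.9 ± 4.31, followed by Slc11a2 at 12.98 ± 2.23, Ireb2 at 11.8 ± 0.991, Aco1 at 7.99 ± 0.269, Ncoa4 at 7.88 ± 0.344 and Hmox1 at 3.81 ± 0.614. Slc11a2 overlapped Ireb2 in this order, Aco1 overlapped Ncoa4, and Hmox1 overlapped Slc40a1. Fth1, Ftl1 and Tfrc held the top 3 ranks in that order in all 4 groups, Slc40a1 rank 9 and Heph rank 10, and none of these top 3 overlapped its neighbour. In the hippocampus Ireb2 came before Slc11a2, and Ncoa4 before Aco1. With the length of all exons of a gene in place of its transcript, the top 3 and the last 2 ranks were the same, and the order of the other 5 genes changed in all 4 groups. By that length Fth1 was at 534 and Ftl1 at 88.4 CPM per kilobase in the neocortex of controls. The levels of Ftl1 and Ncoa4 in this order are uncertain, since 78.6% and 48.7% of their windows of 100 bases are shared with other loci.

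**Figure D5:**
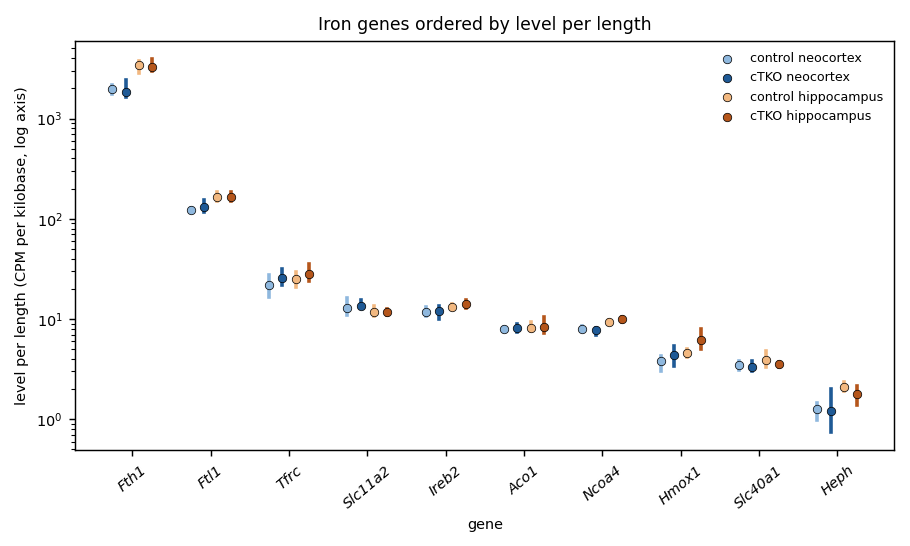
Level per length of each gene in CPM per kilobase (y axis, log scale; points, mean of 5 libraries; lines, lowest to highest library) in the 4 groups, with genes in the order of control neocortex. Fth1 lies at 1993 CPM per kilobase in control neocortex and 3434 in control hippocampus, and Ftl1 at 122 and 164. Of the windows of 100 bases of Ftl1, 78.6% are shared with other loci, so that its level is uncertain. Heph is lowest in every group.

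Around the members, 59 further genes of iron metabolism in 7 lists were read from the same fits, of which 51 were tested in the neocortex and 50 in the hippocampus. Between genotypes, edgeR called 0 of them in either region, and DESeq2 called 0 as well, while 5 in the neocortex and 2 in the hippocampus had an unadjusted p under 0.05, no larger a share than the 10.4% and 12% of all genes. Without cTKO neocortex 5, 1 of them was called in the neocortex. Those of the neocortex included Steap2, an endosomal reductase (log2 fold change -0.21), Cdc42bpa, a kinase whose transcript carries an IRE (-0.13), Alas1, which starts heme synthesis (0.12), and Hmox2, the constitutive heme oxygenase (0.14). Those of the hippocampus included Slc39a14, an importer of iron not bound to transferrin (0.16). These genes were named after their values were seen. The interaction called 0 of the 51 genes, also with DESeq2, and 0 had an unadjusted p under 0.05.

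By region, 30 of the 51 genes passed in controls, 22 higher and 8 lower in the hippocampus, and 31 in cTKO mice, 22 higher and 9 lower. These shares are set against the 51.1% and 49.6% of all genes called, and the 26.3% and 25.8% of all genes called higher in the hippocampus. In both genotypes 27 genes were called, 90.0% of those called in controls and 87.1% of those called in cTKO mice. Of the 13 genes of mitochondrial import and iron-sulfur clusters, 7 were higher and 2 lower in the hippocampus in controls and as many in cTKO mice. Of the 14 genes of heme synthesis, export and breakdown tested, 7 were higher and 2 lower in controls and 5 were higher and 2 lower in cTKO mice. Of the 7 genes of the transferrin cycle and ferrireduction tested, 3 were higher in controls, and 4 were higher and 1 lower in cTKO mice. Of the 5 genes of other import and endosomal release, 2 were higher and 2 lower in either genotype. Of the 5 genes of iron regulatory protein turnover and other IRE transcripts, 2 were higher and 1 lower in controls and 3 were higher and 1 lower in cTKO mice. Of the hepcidin genes 1 of 4 was lower in both genotypes, and of the chaperones and other ferroxidases 1 of 3 was higher in both.

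Among the called genes of these lists, Cybrd1 rose most in the hippocampus and Hfe2 and Slc25a37 fell most, in either genotype. Cybrd1, a membrane ferrireductase, was at 1.89 to 4.86 CPM in the neocortex and 8.14 to 13.6 CPM in the hippocampus of controls, a log2 fold change of 1.90 ± 0.28 (SE; edgeR's FDR = 7.42e-06), and in cTKO mice it changed by 1.71 ± 0.27 (SE; FDR = 1.66e-05). Slc25a37, mitoferrin 1, which carries iron into mitochondria, was at 39.3 to 44.3 CPM in the neocortex and 17.6 to 21.1 CPM in the hippocampus of controls. Its log2 fold change was -1.13 ± 0.09 (SE; FDR = 9.85e-10) in controls and -1.25 ± 0.09 (SE; FDR = 2.35e-10) in cTKO mice, and the regions did not overlap. Hfe2, the older symbol of hemojuvelin, a co-receptor that raises hepcidin in liver, was barely detected, with 9 to 30 counts in the neocortical libraries and 0 to 9 in the hippocampal ones. Its log2 fold changes of -2.55 and -2.09 (FDR = 0.000166 and 0.00141) rest on these few counts, and the gene no longer passed the filter when any of 5 neocortical libraries was left out.

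As a description of how each member varied within groups, the 2 other genes were taken whose deviations from the group means were most like its own over the 20 libraries. For Fth1 these were Tsc22d4 (Pearson's r 0.92, Spearman's rho 0.85) and Cox5b, a subunit of cytochrome oxidase (0.91 and 0.94). For Tfrc they were Aspa, an enzyme known from oligodendrocytes (0.88 and 0.88), and Ptgr2 (0.86 and 0.85). For Ftl1 they were Tnfaip8 (0.92 and 0.89) and Dusp9 (0.89 and 0.89), and for Ireb2 they were Trip12 and Birc6, a pair of ubiquitin ligases (0.91 and 0.88, and 0.89 and 0.90). The remaining members were nearest to Psmd1 and Iqcc for Slc11a2, Hnrnpa3 and C030013G03Rik for Ncoa4, Alg14 and BC028528 for Slc40a1, Nde1 and Epb4.1l2 for Heph, Ddb1 and Snd1 for Aco1, and Ensa and Stk40 for Hmox1, with r from 0.73 to 0.86. Without the pair of libraries that stand apart, over 18 libraries, the r of these 20 pairs ran from 0.69 to 0.92. Each pair shares its libraries and their depth and was picked as the highest among all genes tested, so these values carry no test.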

How the data were processed

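The authors extracted total RNA, mapped the reads to mm10 with STAR 2.5.4a and used HTSeq for counting; they deposited raw counts per gene symbol, 1 file per library. The annotation and strand setting of the counting are not given in the sources used here. All 20 libraries were used, and the columns left out number 0. The members and all gene lists were chosen with earlier results of these data known.

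Counts were analysed with edgeR 4.0.16 in R 4.3.3: genes with CPM above 1 in at least 5 libraries, TMM scaling, and the quasi-likelihood test (glmQLFit, glmQLFTest), in each region (10 libraries) for genotype and in a fit of 20 libraries for region and interaction. P values were adjusted over all genes tested, with a threshold of 0.05. SE is the log2 fold change divided by the root of F. Procedures were tested on simulated data.

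Alternatives were the exact and likelihood ratio tests, DESeq2 1.42.0, its size factors, filterByExpr, no filter, sex read from Xist, a replicate block, 1 fit of 20 libraries, the 10 libraries of a genotype, and libraries left out. Length of all exons was added after seeing the data. Controls of the same number correlated across regions in all 5 pairs (r 0.13 to 0.33 over genes, each highest with its own number). The main fit was unpaired, and a fit that pairs them was set beside it. Sex read from Xist matched across regions in all 5 pairs of either genotype. In cTKO mice r was over 0.1 in 3 of 5 pairs.

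Positions, UTRs and lengths (the transcript whose name ends in 201) are from GENCODE M21 of GRCm38. Named beyond the members are the deleted genes, the 2 largest regional rises and falls of the wider iron list, and the 2 genes most like each member. Values of 2 further genes were left out of the text. Flvcr1, Flvcr2 and Hjv are listed under older symbols. The 13 marker lists cover neurons, glia, vessels, choroid plexus, ependyma, macrophages, blood and embryonic tissue. Floors of 3 counts cover counting error only.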

Additional observations from a re-analysis of the deposited data

Results flagged for a closer look

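Of the 40 sets of 5 libraries (10 members in 4 groups), 2 held a library far from the other 4, by the ratio of its gap to the whole range, with a critical value of 0.71. Chance gives about 1 in 20 sets. Fth1 in cTKO neocortex 3 was at 2263 CPM, while the other 4 libraries lay between 1524 and 1616 CPM (ratio 0.876). Within the neocortex, the summed markers of oligodendrocytes (6062 CPM), oligodendrocyte precursors (273 CPM) and excitatory neurons (10827 CPM) were also highest in this library. Their part in the value was not tested. Without this library the log2 fold change of Fth1 between genotypes was -0.23 (edgeR's FDR = 0.1315), against -0.11 (FDR = 0.768) with it. Ncoa4 in cTKO neocortex 4 was at 23.0 CPM, below the other 4 at 26.4 to 27.3 CPM (ratio 0.788).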

How the results depend on the processing

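The count of members called was within 1.5 times the reported one under every alternative run: 0 in both genotype comparisons and the interaction, 4 or 5 by region in controls, and 5 to 7 in cTKO mice. Of the member values, 185 of 190 in the neocortex and 174 of 190 in the hippocampus kept their direction and call between genotypes, as did 278 of 280 by region in controls and 259 of 280 in cTKO mice. None of the values that changed direction was called. In the neocortex these were, with a library left out, Ncoa4 (-0.0359 to 0.0296), Heph (-0.345 to 0.0413), Ireb2 (-0.0143 to 0.102) and Aco1 (-0.000202 to 0.0732). In the hippocampus they were Slc11a2 (-0.0418 to 0.0363), Ftl1 (-0.0292 to 0.064) and Aco1 (-0.0973 to 0.0547) with a library left out, and Aco1 at -0.00536 with filterByExpr, -0.00458 with the replicate block and -5.15e-05 with sex as a covariate. By region Aco1 changed direction with a library left out in controls (-0.0115 to 0.0697) and in cTKO mice (-0.0948 to 0.0579). In cTKO mice it was also -0.000962 with DESeq2, -0.000275 with its size factors, -0.00495 with the 10 libraries of the genotype and -0.0926 without both libraries that stand apart. The causes were not tested, but every such value lay near 0. In cTKO mice, where the numbers were not shown to pair the libraries, the replicate block lost Ireb2 (FDR = 0.0626, edgeR) and gained Slc11a2 (FDR = 0.0155). Between genotypes, same-numbered libraries correlated over 0.1 in 3 of 5 pairs in the neocortex and 1 of 5 in the hippocampus. In the neocortex 4 of 5 controls correlated best with the cTKO library of their own number, and in the hippocampus 1 of 5. Nothing states that a number marks a litter, and the main fit did not pair the genotypes. With the block, neocortical Tfrc differed by 0.26 on the log2 scale (edgeR's FDR = 0.153, against 0.542). It changed no other call of a member besides that of Tfrc in controls.

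In the wider iron list, the transferrin cycle had 3 genes called by region in cTKO mice without both libraries that stand apart, against 5, and the chaperones 0 against 1. With a library left out, the chaperones had 0 to 2 called in controls and 0 to 1 in cTKO mice, the hepcidin genes 0 to 2 in both, and the IRE transcripts 0 to 1 between genotypes in the neocortex (1 without cTKO neocortex 5). Over all genes, DESeq2 called 221 in the neocortex and 331 in the hippocampus between genotypes, the exact test 163 and 258 and the likelihood ratio test 167 and 259, against 26 and 67. The replicate block called 12 and 58, no filter 42 in the neocortex, and the fit of 20 libraries 189 in the hippocampus. For the interaction, the likelihood ratio test and DESeq2 called 26 each and the block 18, against 8. With a library left out, the counts over all genes ran from 7 to 133 in the neocortex, from 15 to 149 in the hippocampus and from 5 to 20 for the interaction.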
